A study of Talpa occidentalis with 24 samples.

Results

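The 4 mouse Hox clusters were examined in deposited chromatin state segmentations of ovary and testis. Their members are the 200 bp bins inside 4 windows of the mm9 assembly, defined by position. The windows are HoxA at chr6:52100001-52220000, HoxB at chr11:96050001-96235000, HoxC at chr15:102745001-102870000 and HoxD at chr2:74495001-74610000. HoxA holds 600 bins, HoxB 925, HoxC 625 and HoxD 575, which makes 2725 of the 13274547 bins of the mouse genome. The series profiled gonads of the Iberian mole, Talpa occidentalis, by ChIP-seq of histone marks, with mouse gonads for comparison. Ovary and testis are the names given by the deposited mouse tables. The labels' protocols date the mouse gonads to embryonic day 13.5 and state that whole gonads were fixed and sonicated. Both mouse tissues share that protocol, and the antibodies named in it are against H3K4me3, H3K4me1, H3K27ac and H3K27me3. The labels used here describe the 24 mole libraries. The strain, genotype, animals and libraries behind the mouse tables were not stated in these labels.

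Each tissue has 1 segmentation, made with EpiCSeg, a method that reads the counts of several marks together and gives each bin a state. There is therefore no replicate check on any difference below, the read depth is unknown, and no test was run. Neighbouring bins are not replicates of each other. Each bin carries 1 of 7 state names, which were used as the authors gave them: Polycomb repression, bivalent promoter, promoter, active enhancer and poised enhancer, besides undefined and gap. How the states relate to the marks, and whether both tissues were segmented under 1 model, is likewise not stated. Whole gonads mix cell types, so a state held by more of the cells and a stronger mark in each cell cannot be told apart. For the same reason, a bivalent call from cells that carry both kinds of mark cannot be told apart from a call over a mixture of active and repressed cells. The tissue names were not checked against marker genes, because no mouse gene annotation was used here.

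Hox genes encode homeodomain transcription factors that give cells their position along the body axis, including along the urogenital tract in which the gonads form. In mammals they sit in 4 compact clusters, and their order on the chromosome follows the order in which they are switched on in time and along the axis. Where they are silent they are a classical target of Polycomb complexes, which deposit H3K27me3. Chromatin that also carries H3K4me3, a mark of promoters, is called bivalent and is typical of silent developmental genes. As background on the mouse genome and not from the files, the HoxA window runs toward Hoxa13 at high coordinates. The other 3 windows run the opposite way, from Hoxb13, Hoxc13 and Hoxd13 at low coordinates to Hoxb1, Hoxc4 and Hoxd1 at high coordinates. No finer gene position is given, since no mm9 annotation was used.

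Each cluster was mostly bivalent in ovary, and in testis the Polycomb repression state took the largest share of each, from 28.7% in HoxD to 67.9% in HoxB. In HoxD this order did not hold with the window trimmed by 10 kb at each end. There the testis was 22.1% Polycomb, 30.5% poised enhancer and 25.5% promoter. Over the 4 windows, the bivalent promoter state took 75.6% of bins in ovary (2060 of 2725) and 22.3% in testis (607). The Polycomb repression state took 11.4% in ovary (312 bins) and 51.6% in testis (1407). In the rest of the genome, the bivalent state took 0.656% of bins in ovary and 0.364% in testis, and the Polycomb state 27.8% in ovary and 25.7% in testis. The windows make up 0.0205% of all bins. They held 2.31% of all bivalent bins in ovary and 1.24% of those in testis.

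The clusters differed among themselves in how far each state extended. HoxA was the most bivalent, with 94% of its bins in ovary and 42.8% in testis. HoxB had 75.5% in ovary and 17.2% in testis. HoxC had 69.1% in ovary and 14.6% in testis, and HoxD had 63.7% in ovary and 17.4% in testis. The Polycomb state took 2.83% of HoxA in ovary against 49.5% in testis. In HoxB it took 19.6% in ovary against 67.9% in testis, and in HoxC 4.16% in ovary against 50.7% in testis. HoxD stood apart in the size of this difference, with 15.3% in ovary and 28.7% in testis.

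The promoter state was most extensive in HoxC in ovary and in HoxD in testis. Promoter bins made up 6.26% of HoxD in ovary (36 bins) and 21.0% in testis (121 bins). In HoxC they made up 9.6% in ovary (60 bins) and 6.72% in testis (42 bins). HoxA had 3 promoter bins in ovary and 0 in testis, and HoxB had 1 in ovary and 6 in testis. In the rest of the genome the promoter state took 0.777% of bins in ovary and 0.743% in testis. The active enhancer state was scarce in all 4 windows. It took 6 bins in ovary and 44 in testis over all of them, 1.61% of bins in testis, although it covered 12% of the rest of the genome in ovary and 9.65% in testis. The poised enhancer state took 7.19% of the 4 windows in ovary and 15.4% in testis. In the rest of the genome it took 15.1% in ovary and 16.8% in testis, so the windows were below that level mainly in ovary.

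**Figure D1:**
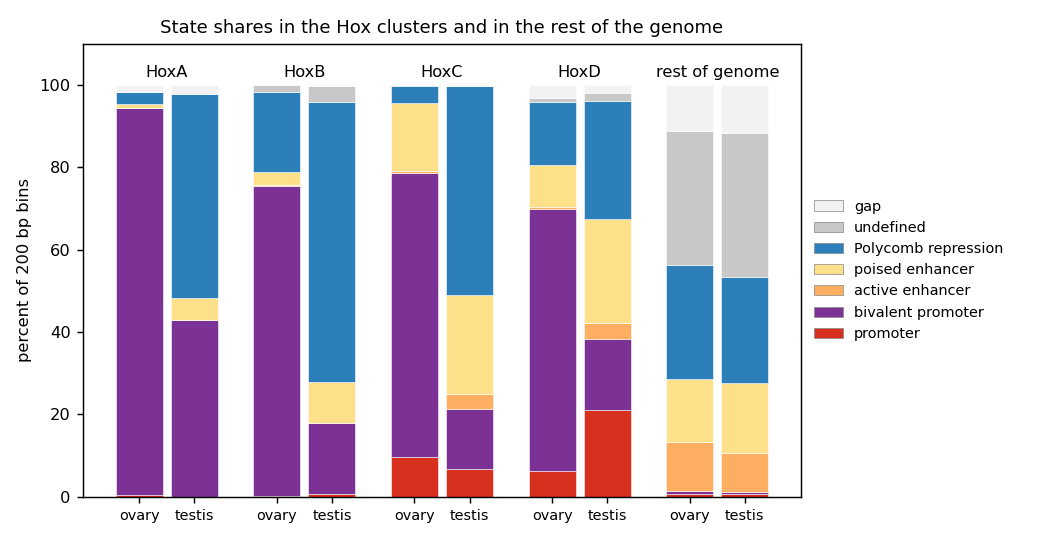
Percent of 200 bp bins (vertical axis) in each of the 7 states, in ovary and in testis, for each Hox cluster and for the rest of the genome; each bar is 1 segmentation, with no error. The bivalent share is larger in ovary in each cluster, from 94% against 42.8% in HoxA to 63.7% against 17.4% in HoxD, while in the rest of the genome it is 0.656% against 0.364%.

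Bin by bin, ovary and testis carried different states over most of the clusters. The state differed in 1678 of the 2725 bins, which is 61.6%, where 48.3% of all bins of the genome differed. Bins that were gap in both tissues count as the same state here, 22 in the windows and 1356397 outside them. Without them the genome share would be higher, by an amount not computed. Undefined bins also weigh on that share. Outside the windows, 1542734 bins were Polycomb in ovary and undefined in testis, and 1267654 the reverse, all counted as differing. In the windows these were 23 and 12. Another 2273240 bins outside the windows were undefined in both tissues. The genome share without undefined bins was not computed. The share was 53% in HoxA, 65.6% in HoxB, 66.7% in HoxC and 58.4% in HoxD. A large part of these differences lay between the 2 repressed states: bins that were bivalent in ovary and Polycomb in testis numbered 1122, or 66.9% of the differing bins. They made up 88.7% of the differing bins in HoxA (282 of 318), 75.9% in HoxB (461 of 607), 67.9% in HoxC (283 of 417) and 28.6% in HoxD (96 of 336). Outside the windows they made up 0.737% of the differing bins (47227 of 6408138). Of all bins of the genome, differing or not, 0.364% were bivalent in ovary and Polycomb in testis.

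Counted as a pair, bivalent and Polycomb bins covered much of each cluster in both tissues. Together they took 96.8% of HoxA in ovary and 92.3% in testis, 95% of HoxB in ovary and 85.1% in testis, and 73.3% of HoxC in ovary and 65.3% in testis. HoxD had 79.0% in ovary and 46.1% in testis. In the rest of the genome the pair took 28.5% in ovary and 26.1% in testis. When bivalent and Polycomb were treated as 1 repressed class, and promoter and active enhancer as 1 active class, the tissues shared their class in 94% of HoxA bins, 84.3% of HoxB, 79.8% of HoxC and 58.4% of HoxD. The rest of the genome shared it in 52.4% of bins. These shares rest on different base levels. In ovary the repressed class took 96.8% of HoxA and 28.5% of the rest of the genome. Where 1 class covers most of a cluster in both tissues, most bins share it whatever the relation bin by bin.

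Nearly all bivalent bins of the testis lay inside the bivalent bins of the ovary. Of the 607 bivalent bins in testis, 596 were bivalent in ovary too, which is 98.2%. The 11 others comprised 1 in HoxA, 1 in HoxB, 5 in HoxC and 4 in HoxD. Over all bins of the genome, 0.476% were bivalent in ovary with another state in testis and 0.173% were bivalent in testis with another state in ovary. Outside the windows, 52.4% of the bivalent bins of the testis were bivalent in ovary. Since the ovary was bivalent over 75.6% of the windows and over 0.656% elsewhere, these 2 overlaps rest on different base levels.

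In the other direction, the clusters as a group did not stand out from bivalent chromatin elsewhere. Of the bins bivalent in ovary, 28.9% were bivalent in testis in the 4 windows, and 29.1% outside them. The share that was Polycomb in testis was 54.5% in the windows and 54.3% outside. The poised enhancer state accounted for 12.3% in the windows and 15.1% outside. The clusters lay on either side of these values: 45.4% of the ovary's bivalent bins were bivalent in testis in HoxA, 22.6% in HoxB, 19.9% in HoxC and 26.2% in HoxD. HoxD differed in what the remainder was, with 19.9% promoter and 26.0% poised enhancer in testis, against 1.01% and 15.1% outside the windows. In total the ovary had 3.39 times as many bivalent bins as the testis in the windows and 1.80 times as many outside.

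**Figure D2:**
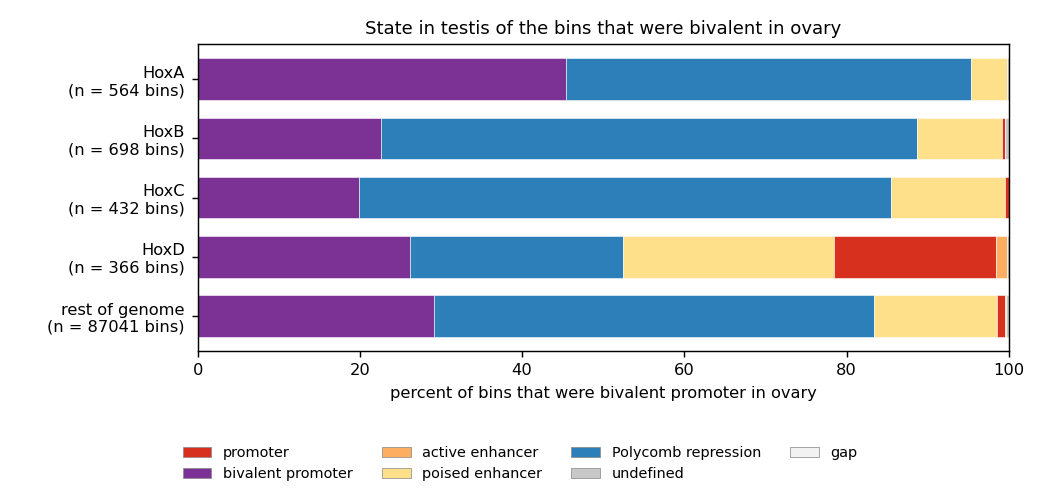
State in testis of the bins that were bivalent promoter in ovary, as a percent of those bins (horizontal axis), for each Hox cluster and the rest of the genome; each bar is 1 comparison of 2 segmentations. The bivalent part is longest in HoxA, at 45.4%, and the promoter part is longest in HoxD, at 19.9% against 1.01% in the rest of the genome.

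Bins that were repressed in ovary and active in testis lay mostly in HoxD. In HoxD, 85 bins were Polycomb or bivalent in ovary and promoter or active enhancer in testis, which is 14.8% of the cluster, where 0.443% of all bins met this rule. HoxA had 0 such bins, HoxB 3 (0.324%) and HoxC 3 (0.48%), so HoxB and HoxC were near the share of all bins. Of the 85 bins in HoxD, 78 were bivalent in ovary and the others Polycomb. The opposite combination, active in ovary and repressed in testis, was found in 2 bins of HoxA, 1 of HoxB, 10 of HoxC and 1 of HoxD, and in 0.623% of all bins. The 10 bins of HoxC are 1.6% of that cluster, above the share of all bins. HoxA (0.333%), HoxB (0.108%) and HoxD (0.174%) were below it. Both tissues were active in 43 of the 625 bins of HoxC and 37 of the 575 of HoxD. In HoxB it was 1 of 925 and in HoxA 0 of 600. Outside the windows, 857896 of 13271822 bins were active in both, a share like that of HoxC and HoxD.

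In HoxA, HoxB and HoxC the bivalent state formed fewer and longer runs in ovary than in testis, while in HoxD the ovary had more runs and a higher median. In HoxA, the ovary had 12 bivalent runs with a median of 9500 bp, and the testis 29 with a median of 1400 bp. In HoxB there were 11 runs with a median of 13200 bp in ovary and 21 with a median of 1200 bp in testis. HoxC had 13 runs with a median of 2000 bp in ovary and 22 with a median of 800 bp in testis. HoxD had 25 with a median of 1200 bp in ovary and 16 with a median of 600 bp in testis. Over the genome, the ovary had 9492 bivalent runs with a median of 1000 bp and the testis 14526 with a median of 400 bp. All states together, the 4 windows were cut into 225 runs in ovary and 437 in testis.

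The spacing of the bivalent runs differed between clusters as well. In testis, neighbouring bivalent runs were a median of 1400 bp apart in HoxA, 4900 bp in HoxB, 2800 bp in HoxC and 2400 bp in HoxD. The longest stretch between 2 such runs in testis was 46600 bp, in HoxB, and the shortest of the 4 maxima was 13000 bp, in HoxC. In ovary the median spacing was 600 bp in HoxA, 600 bp in HoxB, 1100 bp in HoxC and 800 bp in HoxD.

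**Figure D3:**
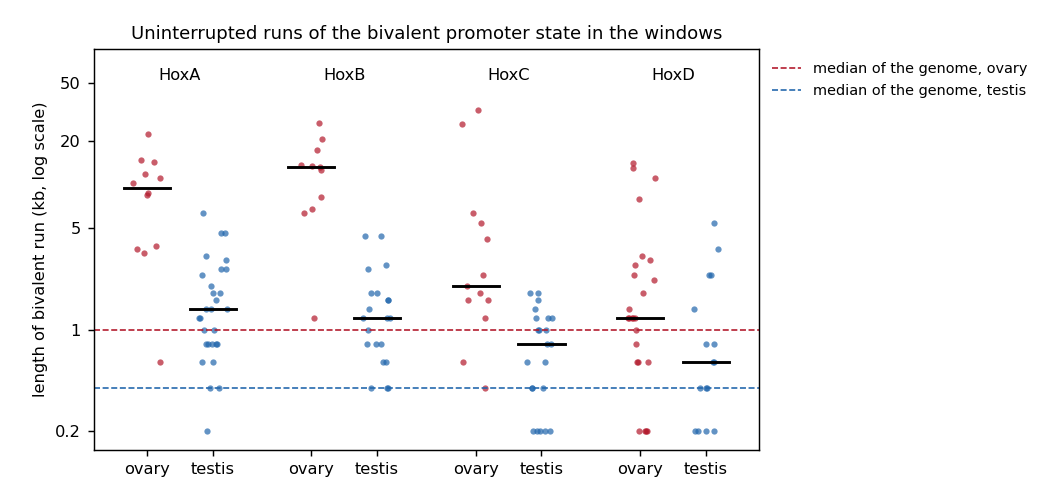
Length in kb (vertical axis, log scale) of each uninterrupted run of the bivalent promoter state inside the windows, in ovary and in testis; each point is 1 run, clipped at the window edges, black bars are medians of the runs, and dashed lines are medians over the genome. The medians of the ovary lie above those of the testis in each cluster, at 9500 against 1400 bp in HoxA and 1200 against 600 bp in HoxD.

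Some of the longest bivalent runs of the ovary genome fell in the clusters. Of the 100 longest, 12 overlapped a window, and of the 10 longest, 2 did, where 61 of all 9492 runs did. The longest of all 9492, of 45800 bp at chr11:96024801-96070600, starts outside the HoxB window and covers its first 20600 bp. The run at chr15:102752601-102785200 in HoxC, of 32600 bp, ranked 8. In testis, 0 of the 10 longest runs and 6 of the 100 longest overlapped a window, where 88 of all 14526 runs did. The longest in the windows was 6400 bp, at chr6:52165601-52172000 in HoxA, and ranked 29, while the longest of the testis genome was 43800 bp.

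HoxA was at least 50% repressed, that is bivalent or Polycomb, in each of its 24 steps of 5 kb in both tissues, and the tissues differed in which of the 2 states they carried. The longest bivalent run in ovary was 22200 bp, at chr6:52161801-52184000. Of its 111 bins, 80 were bivalent in testis, 28 Polycomb and 3 poised enhancer. The longest bivalent run in testis lay within it. The longest stretch where the states differed was chr6:52128001-52141000, of 13000 bp, where all 65 bins were bivalent in ovary and, in testis, 64 were Polycomb and 1 poised enhancer. The next were chr6:52143401-52150200, of 6800 bp, and chr6:52116001-52122400, of 6400 bp, again bivalent in ovary throughout and mostly Polycomb in testis, in 28 of 34 and 30 of 32 bins.

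The testis had a bivalent block in the middle of HoxA. In adjoining steps of 5 kb, the testis was bivalent over at least 50% of each of 10 steps in a row, chr6:52150001-52200000, with 56% to 92% per step. The ovary had 84% to 100% in the same steps. Over this block, 96% of bins were bivalent in ovary and 69.2% in testis, and the state was the same in 71.2%. In the 50 kb before it, 92.8% were bivalent in ovary and 22% in testis, and 66% were Polycomb in testis. In the 20 kb after it, 92% were bivalent in ovary and 29% in testis. The block was delimited after its values had been seen, as were the stretches of the other clusters below.

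HoxB fell into 3 stretches. Its first 20 kb, at the Hoxb13 end, were bivalent in 100% of bins in ovary and 32% in testis. The next 40 kb, chr11:96070001-96110000, were bivalent in 4.5% of bins in ovary and 0% in testis and were mostly Polycomb in both tissues, with 77.5% in ovary and 79% in testis. The state was the same in 70% of those bins. There the ovary had its longest Polycomb run of the 4 windows, 8000 bp at chr11:96087801-96095800. The other 125 kb, which run to Hoxb1, were bivalent in 94.2% of bins in ovary and 20.3% in testis, and Polycomb in 4.16% in ovary and 65.3% in testis. The state was the same in 23.4% of them.

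Within that last stretch of HoxB, a site near its low end differed from the rest. At chr11:96111801-96113000, the testis had a promoter run of 1200 bp, the only active run of at least 1 kb in HoxB. Of its 6 bins, 3 were bivalent in ovary, 2 poised enhancer and 1 active enhancer. A bivalent run of 4400 bp in testis, chr11:96113001-96117400, adjoined it, and a poised enhancer run of 5600 bp in testis followed at chr11:96118801-96124400. The step chr11:96120001-96125000 had the largest difference of HoxB, with 100% of bins bivalent in ovary and, in testis, 88% poised enhancer and 12% Polycomb. The longest differing stretches were chr11:96162201-96172600 (10400 bp), chr11:96204001-96213600 (9600 bp) and chr11:96194401-96202600 (8200 bp). All their bins were bivalent in ovary, and in testis 38 of 52, 41 of 48 and 36 of 41 were Polycomb.

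**Figure D4:**
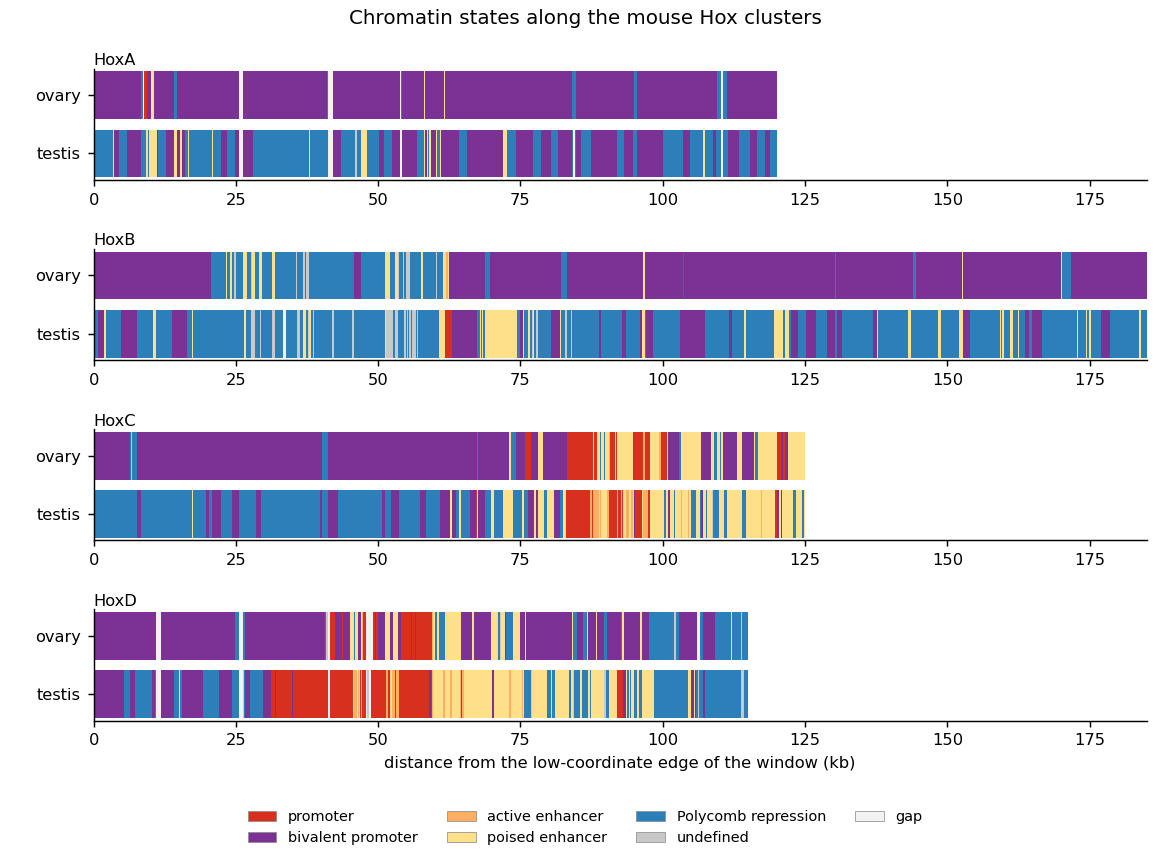
States of ovary (upper band) and testis (lower band) along each Hox window; the horizontal axis is the distance in kb from the low-coordinate edge, and each coloured block is a run of bins in 1 state. Long bivalent blocks in ovary stand over alternating Polycomb and bivalent blocks in testis, and the promoter state of testis is concentrated in HoxC and HoxD.

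HoxC had a long repressed part and a shorter part with active states, in both tissues. The first 80 kb from the Hoxc13 end, chr15:102745001-102825000, were bivalent in 93% of bins in ovary and 19.8% in testis, and Polycomb in 3.75% in ovary and 72.75% in testis. The 3 longest differing stretches lay there, at chr15:102753401-102764800 (11400 bp), chr15:102774401-102784800 (10400 bp) and chr15:102788001-102795600 (7600 bp). Their bins were all bivalent in ovary, and Polycomb in testis in 56 of 57, 52 of 52 and 38 of 38. The second of them was the longest Polycomb run of testis in the 4 windows.

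The next 20 kb of HoxC, chr15:102825001-102845000, were promoter or active enhancer in 49% of bins in ovary and 60% in testis. The promoter state alone took 46% in ovary and 40% in testis, and the active enhancer state 3% in ovary and 20% in testis. The longest active run in ovary, chr15:102828201-102832800, had 23 promoter bins, and the same bins in testis comprised 21 promoter and 2 active enhancer bins. In testis the corresponding run was chr15:102828001-102833800, of 5800 bp. Active runs of at least 1 kb added up to 11000 bp in each tissue, in 5 runs in ovary and 4 in testis. Of the 60 promoter bins of HoxC in ovary, 34 were promoter in testis, 9 poised enhancer, 7 active enhancer, 5 bivalent and 5 Polycomb.

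Toward Hoxc4, the last 25 kb of HoxC were 50.4% poised enhancer and 35.2% bivalent in ovary, and 72.8% poised enhancer and 4% bivalent in testis. The step chr15:102855001-102860000 had the largest excess of repressed bins in ovary in this cluster. It was 68% bivalent and 4% Polycomb in ovary, and 20% Polycomb and 80% poised enhancer in testis. A promoter run of 1000 bp at chr15:102820801-102821800 in ovary, before the active part, was 3 bins Polycomb and 2 bivalent in testis. The active run at chr15:102844401-102845800 in ovary, of 1400 bp, was 5 bins poised enhancer and 2 Polycomb in testis.

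HoxD held the largest difference in active states, in its centre. Across chr2:74525001-74560000, the 35 kb in which at least 25% of a 5 kb step was active in either tissue, promoter bins made up 20.6% in ovary and 66.3% in testis. Promoter and active enhancer together took 21.7% in ovary and 76.6% in testis, while bivalent and Polycomb together took 54.3% in ovary and 5.14% in testis. The step chr2:74530001-74535000 was 100% bivalent in ovary and 100% promoter in testis. The next steps were 20%, 28% and 20% active in ovary and 92%, 68% and 92% active in testis, up to position 74550000.

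Within this block, the tissues were most alike in the step before the last. That step, chr2:74550001-74555000, was 84% active in ovary and 88% in testis, and 88% of its bins shared their state. The last step, chr2:74555001-74560000, was 0% active in ovary and 28% in testis, and 48% of its bins shared their state. The promoter run chr2:74551601-74554400 in ovary, of 2800 bp, ranked 259 among the 27917 promoter runs of the ovary genome. Of the 36 promoter bins of HoxD in ovary, 35 were promoter in testis and 1 was bivalent. Of the 121 promoter bins in testis, 73 were bivalent in ovary, 35 promoter and 7 poised enhancer.

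Active runs of at least 1 kb in HoxD numbered 2 in ovary, with 4800 bp in all, and 7 in testis, with 24800 bp. The promoter run chr2:74530001-74536200 in testis, of 6200 bp, ranked 17 among the 26109 promoter runs of the testis genome, and 28 of its 31 bins were bivalent in ovary. In testis, 2 others were among the 100 longest, chr2:74548601-74554000 of 5400 bp and chr2:74536601-74540600 of 4000 bp. The longest bivalent run of HoxD in ovary, chr2:74521601-74535600, of 14000 bp, reached into the active block of testis. Of its 70 bins, 45 were promoter in testis, 13 bivalent and 12 Polycomb.

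On either side of the active block, HoxD differed between the sides of Hoxd13 and Hoxd1. The 30 kb on the side of Hoxd13, chr2:74495001-74525000, were repressed in 95.3% of bins in ovary and 94% in testis, with 91.3% bivalent in ovary and 54% in testis. The first step, chr2:74495001-74500000, was 100% bivalent in both tissues. The 50 kb on the side of Hoxd1, chr2:74560001-74610000, were repressed in 86.4% of bins in ovary and 46% in testis. The bivalent state took 57.6% of that side in ovary and 4% in testis, and the poised enhancer state 10.8% in ovary and 48% in testis. The longest differing stretch of HoxD lay there, chr2:74570001-74579000, with 44 of 45 bins bivalent in ovary and, in testis, 30 poised enhancer and 13 Polycomb. A promoter run of 1000 bp in testis at chr2:74587001-74588000 was 3 bins bivalent, 1 poised enhancer and 1 Polycomb in ovary.

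Taken over all 109 steps of 5 kb, the bivalent share was higher in ovary in 96, higher in testis in 2 and equal in 11. The steps with at least 50% bivalent bins numbered 86 in ovary and 16 in testis. In ovary 49 steps were bivalent throughout, while in testis 39 steps had 0 bivalent bins. The median step was 100% bivalent in ovary and 44% in testis in HoxA, and 100% and 12% in HoxB. It was 80% in ovary and 4% in testis in HoxC, and 72% in ovary and 0% in testis in HoxD. The active share was higher in testis in 10 of the 23 steps of HoxD and higher in ovary in 0. In HoxC it was higher in ovary in 4 of 25 steps and higher in testis in 5.

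**Figure D5:**
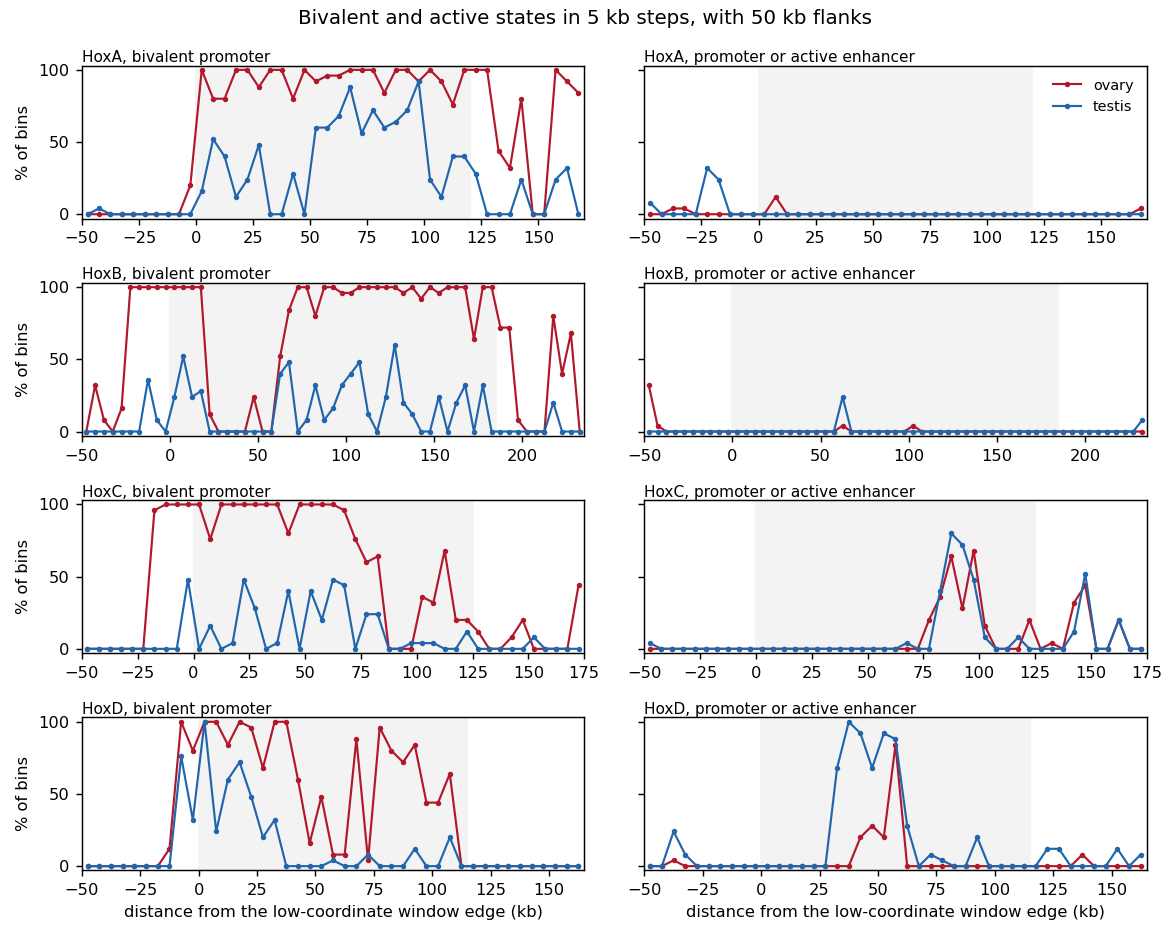
Percent of bins (vertical axes) in the bivalent promoter state (left) and in the promoter or active enhancer state (right) in adjoining 5 kb steps, against the distance in kb from the low-coordinate window edge; grey shading marks the window, with 50 kb of flank on each side, and each point is 1 step. The ovary line lies above the testis line for the bivalent state in 96 of 109 window steps, and for the active states the testis line lies above in the centre of HoxD, reaching 100% where the ovary has 0%.

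The bivalent domains of the ovary ran past some window edges and stopped at others. In the 50 kb beyond the Hoxa13 side of HoxA, 63.2% of bins were bivalent in ovary and 10.8% in testis, whereas beyond the low-coordinate edge it was 2% in ovary and 0.4% in testis. Beyond Hoxb13, 55.6% were bivalent in ovary and 4.4% in testis, and beyond Hoxb1, 34% in ovary and 2% in testis. Beyond Hoxc13 it was 39.6% in ovary and 4.8% in testis, and beyond Hoxc4 8.4% in ovary and 0.8% in testis. Beyond Hoxd13 it was 19.2% in ovary and 10.8% in testis, and beyond Hoxd1 0% in both. These shares include blocks set apart from the windows. Beyond Hoxa13, the steps in chr6:52245001-52255000 had 0% bivalent bins in ovary, and the step after them 100%. Beyond Hoxb1, the steps in chr11:96250001-96265000 had 0% in ovary, and the step after them 80%. On each cluster the flank on the side of the Hox13 gene was the more bivalent of the 2, in ovary and in testis.

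Set against the rest of the genome, the clusters belonged to a small group of large bivalent domains. The genome has 26537 adjoining tiles of 100 kb, of which 10 overlap a Hox window. At least 50% of bins were bivalent in 12 tiles in ovary (0.0452%) and in 3 tiles in testis (0.0113%). Of these, 6 in ovary and 0 in testis overlapped a window. The tile chr6:52100001-52200000 in HoxA had the highest bivalent share of all in ovary, 94.4%, and 45.6% in testis. In the 6 other tiles past 50% in ovary, testis had a median of 11.9%, from 7.4% to 80.8%. In the 6 Hox tiles testis had a median of 13.8%, from 6.4% to 45.6%. Tiles with at least 50% of Polycomb and bivalent bins together were commoner, at 9.48% of all tiles in ovary and 4.08% in testis.

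Most bins of the long bivalent runs of the ovary were Polycomb in testis, at the clusters and elsewhere. The ovary had 217 bivalent runs of at least 10 kb, of which 20 overlapped a window, and the testis had 11, of which 0 did. Among bivalent runs of any length, 61 of 9492 in ovary and 88 of 14526 in testis overlapped a window. In the 20 runs of the ovary that overlapped a window, 28.0% of bins were bivalent in testis and 64.1% Polycomb. In the 197 elsewhere, 33.7% were bivalent in testis and 63.1% Polycomb. Per run, the median bivalent share in testis was 23.8% in the Hox runs, from 9.16% to 72.1%. Elsewhere it was 31.4%, from 0% to 100%. The promoter state of testis took 2.46% of the bins in the Hox runs and 0.113% elsewhere.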

How the data were processed

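Gonads were profiled by ChIP-seq of histone marks. The deposited mouse tables, 1 for ovary and 1 for testis, assign a chromatin state name to each segment in whole 200 bp bins; they hold no read counts. Per the file headers EpiCSeg made them; its version is not given in the sources used here. STAR 2.6.1d and mm9 appear in the submitters' processing notes, without a role. The depth is unknown. The mole tables were not used.

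Segments were split into bins, which cover the same positions in both tissues. States were counted per window, in 5 kb steps, in 50 kb flanks and in 100 kb tiles, and compared bin by bin with Python 3.11.15 and numpy 2.4.6. Differences are ovary minus testis. Differing runs are named by length (the 3 longest per cluster), as are the longest bivalent and Polycomb runs and active runs of at least 1 kb; other regions were named after their values had been seen. The code was tested on simulated segmentations. The windows, comparisons and alternatives were chosen with earlier results of these data known. Mouse gene positions and sequences were not used here.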

Additional observations from a re-analysis of the deposited data

How the results depend on the processing

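No paired analysis was possible because each tissue has 1 segmentation, with no replicate number, and for that reason no replicate could be left out either. The bivalent excess of the ovary and the Polycomb excess of the testis kept their direction in all 4 clusters under each of the 5 alternatives tried for them. The share of bins in the same state depended most on how states were compared. With states pooled into classes it was 94% in HoxA, 84.3% in HoxB, 79.8% in HoxC and 58.4% in HoxD, against 47%, 34.4%, 33.3% and 41.6% for single states. With a tolerance of 1 bin at boundaries it was 55%, 42.1%, 42.7% and 48.9% in the same order. With windows trimmed by 10 kb at each end, HoxD shared 36.6%. With whole segments in place of bins, the bivalent difference (ovary minus testis) was 62.7 points in HoxB and 59.3 in HoxC, against 58.3 and 54.6, and the Polycomb difference in HoxB was -53.1 against -48.3. Without gap and undefined bins that difference was -52.5. The bins active in ovary and repressed in testis numbered 0 in HoxA with trimmed windows, and 0 in HoxB and 0 in HoxD after smoothing over 3 bins. The causes of these shifts were not tested. The remaining 80 values for these results moved by less than the limits set for them, and the 85 bins of HoxD that were repressed in ovary and active in testis stayed within 1.5 times under the 4 alternatives tried. Among the shares of single states in each cluster and tissue, 40 values moved past their limits and 240 did not. With trimmed windows, Polycomb was no longer the largest state of HoxD in testis. The depth behind the calls is unknown, so no precision could be given for single bins.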
